A study of Mus musculus with 8 samples.

Results

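A set of 10 genes that mark white blood cells, megakaryocytes and platelets was followed in mouse embryonic stem cells that carried 1 copy of Nkx2-5 R141C, a missense change in a heart transcription factor, and in wild-type cells. The genes were Srgn, Clec4a3, Pf4, Gp9, Gp1bb, Itga2b, Laptm5, Csf1r, Ptprc and Spi1, out of 34735 genes measured, and 15 array probes carried their names. They were chosen by their signal in R141C against wild type at day 6, where several of them stood out, so their values in that comparison are given as a description, with no test. The question was whether white cell and platelet lineage markers were higher together in R141C cultures at day 6.

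The 4 groups were heterozygous Nkx2-5 R141C cells at day 6 of differentiation, wild-type cells at day 6, R141C cells at day 0 and wild-type cells at day 0, with 2 biological replicates and 1 array each per group. All groups were cultures of mouse embryonic stem cells, and at day 6 they had passed through hanging-drop and suspension embryoid bodies without LIF and 24 hours of plating. The labels do not say whether the R141C cells are 1 clone or several. Levels are log2 of the processed array signal, with the 75th percentile of an array set to 0. A probe was read as measured on an array where the scanner flagged it as well above background, which held for 55.8% to 70.5% of the probes per array. All 8 pluripotency markers examined were well above background on every array, and the 8 had lower levels at day 6 than at day 0 in both genotypes. The 10 cardiac markers examined were well above background on all 4 day 6 arrays, and all 10 had a lower mean in R141C than in wild type at day 6, with a median log2 difference of -2.62. None passed the limma test (smallest adjusted p = 0.33). At an unadjusted p under 0.05, 8 were lower and none higher, against 3.38% and 5.14% of all tested genes. Their mean log2 level was -0.41 and 1.82 on R141C replicates 1 and 2, against 2.97 and 3.07 on the wild-type replicates.

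At day 6, the arrays of R141C replicate 2 and of wild type lay close to each other. Across genes, R141C replicate 2 correlated at 0.988 and 0.989 with the 2 wild-type arrays and at 0.982 with R141C replicate 1. At day 0, wild-type replicate 1 correlated at 0.991 and 0.987 with the R141C arrays and at 0.983 with wild-type replicate 2. Values of the members on the 2 R141C replicates at day 6 are therefore given one by one. All arrays were on 1 slide, with the days in separate columns and the genotypes in separate rows, so slide position and group cannot be told apart.

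Platelets are shed by megakaryocytes, large cells that arise from blood progenitors. They carry the fibrinogen receptor, of which Itga2b encodes the alpha subunit, and the receptor for von Willebrand factor, to which Gp9 and Gp1bb contribute subunits. Their alpha granules store chemokines such as platelet factor 4, encoded by Pf4, on the proteoglycan serglycin, encoded by Srgn. White blood cells carry CD45, encoded by Ptprc, and myeloid cells among them use the transcription factor PU.1, encoded by Spi1, and the macrophage colony-stimulating factor receptor, encoded by Csf1r. In the embryo and in embryoid bodies, the first blood cells to appear include primitive red cells, macrophages and megakaryocytes.

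The promoters of the 5 members called higher at day 6 than at day 0 in R141C cells are printed here. That contrast shares the R141C day 6 arrays with the one that chose the members, so nothing is read from this choice. Each promoter runs from 250 bases before to 50 bases after the first start site in RefSeq, on GRCm38.p6 and on the strand of the gene. Pf4 is at chr5:90772185-90772484 on the plus strand, Gp9 at chr6:87777820-87778119 on the plus strand, Itga2b at chr11:102469834-102470133 on the minus strand, Srgn at chr10:62527396-62527695 on the minus strand and Clec4a3 at chr6:122952265-122952564 on the plus strand. Capitals mark matches, on either strand, to letters that megakaryocyte and blood regulators are known to bind: AGATAA or TGATAA for GATA factors, AGGAAG for ETS factors, TGTGGT for RUNX factors and TGACTCA for NF-E2 and AP-1. The letters TNAAGTG, for NKX2 factors, were searched too.
Pf4: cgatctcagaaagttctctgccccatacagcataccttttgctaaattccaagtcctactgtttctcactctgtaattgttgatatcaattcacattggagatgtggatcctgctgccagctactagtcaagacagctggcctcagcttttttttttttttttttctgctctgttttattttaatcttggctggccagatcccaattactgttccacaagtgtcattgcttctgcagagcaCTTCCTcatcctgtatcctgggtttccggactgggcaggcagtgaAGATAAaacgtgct
Gp9: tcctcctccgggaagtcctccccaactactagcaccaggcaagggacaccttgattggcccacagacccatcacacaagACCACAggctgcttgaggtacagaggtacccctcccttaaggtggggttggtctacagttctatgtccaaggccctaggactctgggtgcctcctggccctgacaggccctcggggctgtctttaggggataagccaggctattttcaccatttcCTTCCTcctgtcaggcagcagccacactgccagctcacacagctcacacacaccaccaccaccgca
Itga2b: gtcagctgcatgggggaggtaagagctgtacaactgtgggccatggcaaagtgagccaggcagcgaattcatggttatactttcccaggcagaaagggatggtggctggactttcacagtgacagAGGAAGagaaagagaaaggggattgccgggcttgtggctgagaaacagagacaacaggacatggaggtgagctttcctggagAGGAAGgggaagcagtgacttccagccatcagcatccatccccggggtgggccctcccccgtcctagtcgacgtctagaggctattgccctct
Srgn: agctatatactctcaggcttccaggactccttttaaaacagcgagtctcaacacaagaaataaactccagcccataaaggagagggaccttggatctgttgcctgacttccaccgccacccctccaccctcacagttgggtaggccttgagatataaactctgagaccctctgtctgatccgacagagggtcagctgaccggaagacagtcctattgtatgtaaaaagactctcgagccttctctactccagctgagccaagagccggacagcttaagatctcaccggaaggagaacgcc
Clec4a3: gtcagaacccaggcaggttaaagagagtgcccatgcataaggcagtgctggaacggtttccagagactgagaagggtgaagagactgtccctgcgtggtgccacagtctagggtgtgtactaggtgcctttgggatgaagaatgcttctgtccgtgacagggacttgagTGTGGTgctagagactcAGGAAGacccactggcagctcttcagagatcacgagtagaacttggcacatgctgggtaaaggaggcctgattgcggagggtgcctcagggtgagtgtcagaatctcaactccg

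Promoters were read for 8 of the 10 members, all but Csf1r and Spi1. Among the first start sites of these 8, the ETS letters stood in 7, all but Srgn, against 35.4% of 32851 mouse promoters of the same length. At these first start sites the GATA letters stood only in Pf4, at position 37 after the start, against 18.6% of all promoters. The RUNX letters stood in Clec4a3, 81 bases before the start, and in Gp9, 171 bases before it, against 16.8% of all promoters. No first start site of the 8 held the NF-E2 letters, found in 5.2% of promoters, or the NKX2 letters, found in 11.5%. Second start sites were left out of these counts, while the shares cover every start site listed. At second start sites Ptprc held GATA letters 100 and 25 bases before the start, and Srgn held RUNX letters 202 bases before it. Ptprc and Clec4a3 also held ETS letters there, and Clec4a3 RUNX letters. All are matches of letters in a window and not measured binding.

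The granule genes Srgn and Pf4 were both higher in R141C than in wild type at day 6. Srgn, probed at chr10:61957432-61957491 of mm9 on the minus strand, had log2 levels of -0.36 and -0.93 on the R141C day 6 arrays, -3.76 and -3.87 on the wild-type day 6 arrays, -4.06 and -3.56 on the R141C day 0 arrays and -3.73 and -3.32 on the wild-type day 0 arrays. It was well above background on all 8 arrays. The R141C day 6 arrays stood alone, and the other 6 arrays lay within a narrow band. At day 6 the mean was 3.17 higher on the log2 scale in R141C than in wild type, an 8.99-fold difference, and each R141C array was above both wild-type arrays.

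Pf4, probed at chr5:91202275-91202334 on the plus strand, had log2 levels of 3.71 and 1.71 on the R141C day 6 arrays and -2.13 and -1.67 on the wild-type day 6 arrays. At day 0 its levels were -8.40 and -8.17 in R141C and -7.21 and -8.73 in wild type, on none of which it was well above background. All 4 day 6 arrays were above all day 0 arrays, and both R141C arrays were above both wild-type arrays. The day 6 mean was 4.61 higher on the log2 scale in R141C. The difference from the wild-type mean was 5.61 for R141C replicate 1 and 3.61 for R141C replicate 2.

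The platelet receptor genes behaved unevenly. Gp9, probed at chr6:87729650-87729709 on the plus strand, had log2 levels of -0.75 and -1.83 on the R141C day 6 arrays and -4.17 and -3.03 on the wild-type day 6 arrays. Its levels at day 0 were -6.91 and -6.54 in R141C and -8.11 and -8.53 in wild type, again not well above background. The day 6 groups did not overlap, and the mean was 2.31 higher on the log2 scale in R141C. At day 0 the signals also did not overlap, but neither genotype had a signal that the scanner separated from background.

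The Itga2b probe crosses an exon junction in the coding sequence, over chr11:102319453-102319661 of mm9 on the minus strand, and is printed because it reads the spliced transcript.
Itga2b probe: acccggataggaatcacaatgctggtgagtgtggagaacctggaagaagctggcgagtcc
With it, Itga2b had log2 levels of 1.40 and -0.54 on the R141C day 6 arrays, -1.26 and -0.38 on the wild-type day 6 arrays, -4.48 and -3.91 on the R141C day 0 arrays and -4.54 and -3.69 on the wild-type day 0 arrays. The day 6 genotypes overlapped, since R141C replicate 2 lay between the wild-type arrays. The mean log2 difference of 1.25 came with differences from the wild-type mean of 2.22 for R141C replicate 1 and 0.28 for replicate 2. Both days were clearly apart in both genotypes.

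Gp1bb, probed at chr16:18621107-18621166 on the minus strand, had a nearly level signal. Its log2 levels were -3.96 and -4.33 on the R141C day 6 arrays, -4.60 and -4.66 on the wild-type day 6 arrays, -4.37 and -4.48 on the R141C day 0 arrays and -4.75 and -4.49 on the wild-type day 0 arrays. The day 6 groups did not overlap, with a mean log2 difference of 0.48 (1.40-fold). Neither of its other 2 probes was well above background on any day 6 array, so they give no day 6 difference. In the RefSeq table Gp1bb overlaps Septin5, whose part in this signal was not tested.

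**Figure D1:**
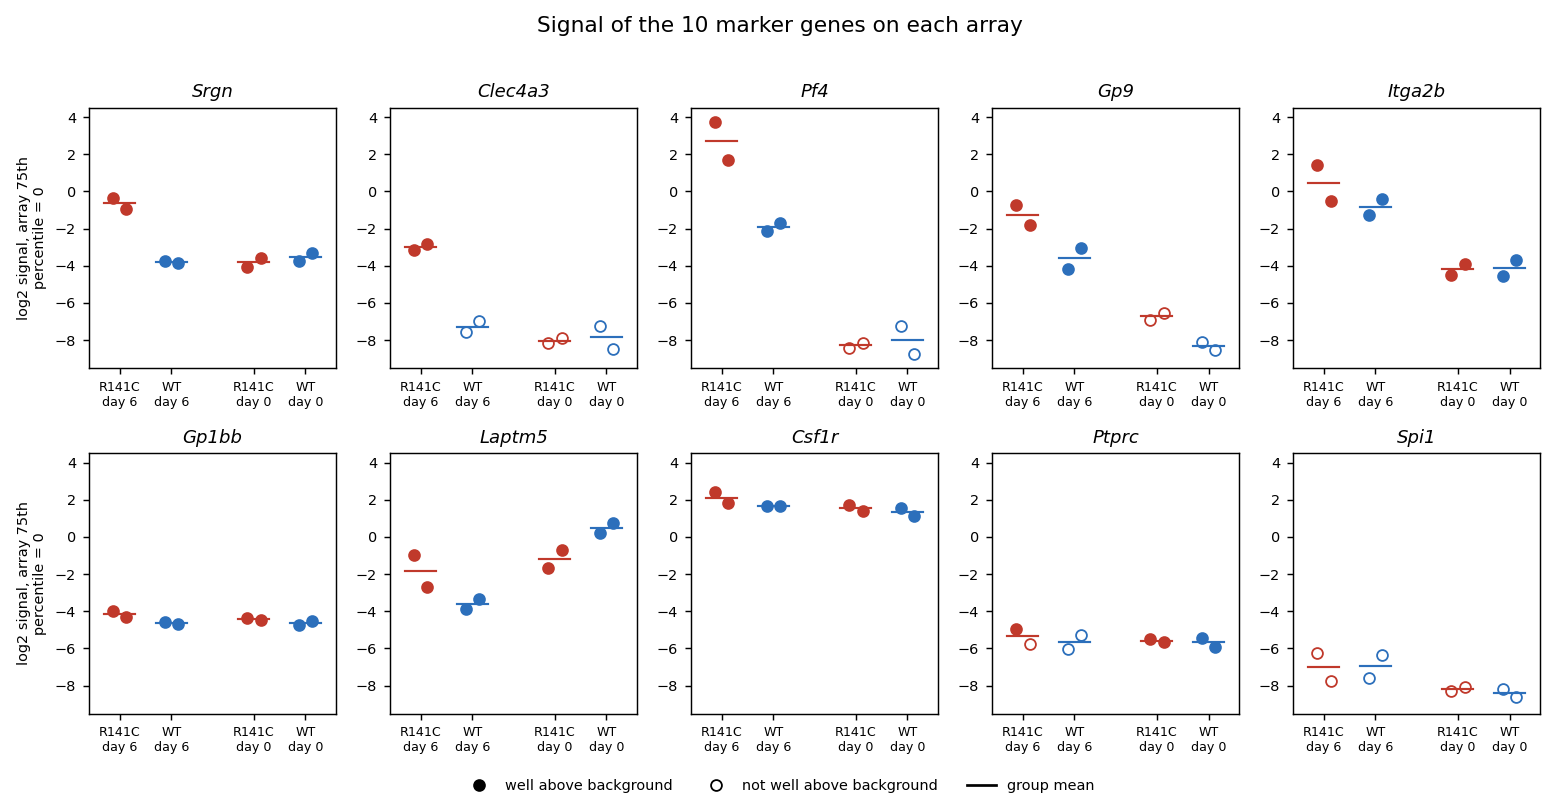
Log2 signal of the 10 marker genes on each of the 8 arrays, with R141C in red and wild type in blue, filled points for arrays on which the probe was well above background and lines for group means of 2 arrays. Srgn and Clec4a3 are high on the 2 R141C day 6 arrays alone, Pf4, Gp9 and Itga2b are higher on all day 6 arrays, and Gp1bb, Csf1r and Ptprc lie nearly level.

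Among the white cell genes, Clec4a3 had the clearest pattern. It encodes a C-type lectin receptor of mouse myeloid cells and was probed at chr6:122919637-122919696 on the plus strand. Its log2 levels were -3.14 and -2.84 on the R141C day 6 arrays, -7.58 and -6.99 on the wild-type day 6 arrays, -8.17 and -7.89 on the R141C day 0 arrays and -7.23 and -8.46 on the wild-type day 0 arrays. Only the R141C day 6 arrays were well above background, so the difference from wild type is a lower bound, at least 5.19-fold. Such bounds are set against the lowest normalized signal among probes well above background on each array. The fitted log2 difference of 4.30 was 1.75 with another background correction (normexp), below the logarithm of the bound. Such bounds therefore hold only for the processed signal as used here.

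Csf1r, probed at chr18:61290725-61290784 on the plus strand, had log2 levels of 2.40 and 1.83 on the R141C day 6 arrays, 1.65 and 1.69 on the wild-type day 6 arrays, 1.72 and 1.41 on the R141C day 0 arrays and 1.57 and 1.10 on the wild-type day 0 arrays. The mean log2 difference at day 6 was 0.45, and its other 2 probes, well above background on all 8 arrays, gave -0.04 and 0.06. The 3 probes of Csf1r thus did not give 1 answer, and all 3 had signal in undifferentiated cells of both genotypes.

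Laptm5, a lysosomal membrane protein of blood cells, was probed at chr4:130490785-130490844 on the plus strand and had a pattern of its own. Its log2 levels were -0.98 and -2.69 on the R141C day 6 arrays, -3.86 and -3.36 on the wild-type day 6 arrays, -1.68 and -0.68 on the R141C day 0 arrays and 0.19 and 0.77 on the wild-type day 0 arrays. It was highest in wild-type cells before differentiation, with R141C below wild type at day 0 and above it at day 6. The day 6 log2 difference was 1.77, with 2.63 for R141C replicate 1 and 0.92 for replicate 2 against the wild-type mean. A second probe gave 1.86 and followed the first over the 8 arrays (Pearson r = 0.99).

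Ptprc and Spi1, which define white cells and their myeloid branch, were near or below detection. Ptprc, probed at chr1:139961083-139961142 on the minus strand, had log2 levels of -4.94 and -5.75 on the R141C day 6 arrays, -6.04 and -5.26 on the wild-type day 6 arrays, -5.51 and -5.65 on the R141C day 0 arrays and -5.42 and -5.92 on the wild-type day 0 arrays. It was well above background on the 4 day 0 arrays and on R141C replicate 1 at day 6, and the groups overlapped at both days. The Spi1 probe crosses a junction over chr2:90939665-90953452 on the plus strand and was well above background on no array.
Spi1 probe: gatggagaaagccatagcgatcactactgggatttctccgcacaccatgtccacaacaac
Spi1 had log2 levels of -6.24 and -7.76 on the R141C day 6 arrays and -7.56 and -6.34 on the wild-type day 6 arrays, which overlapped and have no fold.

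The members were thus not uniform at day 6. For 7 of the 10, both R141C arrays were above both wild-type arrays, and for none were both below. Over all 34735 genes measured, 22.4% were without overlap and higher in R141C and 15% were without overlap and lower. The 10 genes were chosen in this contrast, so their count is not read against those shares. The median log2 difference of the members was 1.51, and the median over all measured genes was -0.01. Only 2 members, Clec4a3 and Ptprc, had a bound from wild type below background. At its bound Clec4a3 stayed above the members' median and Ptprc below it, so setting them there could not change that median. The 3 without separation were Itga2b, Ptprc and Spi1.

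For 9 of the 10 members, R141C replicate 1 was higher than R141C replicate 2 at day 6, Clec4a3 being the exception. Without R141C replicate 1 the members' median log2 difference was 0.61, and without replicate 2 it was 2.43. The differences of R141C replicates 1 and 2 from the wild-type mean were 3.46 and 2.88 for Srgn and 4.15 and 4.45 for Clec4a3. Pf4, Itga2b and Laptm5 each differed by more than 1.7 between the R141C replicates on the log2 scale. In bulk RNA, more cells of a type and more RNA per cell cannot be told apart.

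**Figure D2:**
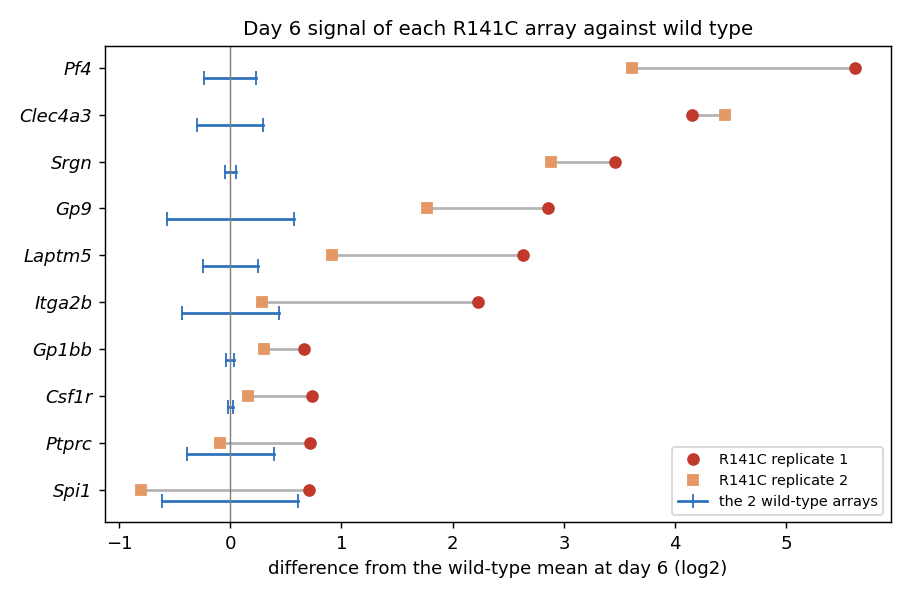
Log2 difference of each R141C day 6 array from the mean of the 2 wild-type day 6 arrays for the 10 marker genes, with a red circle for replicate 1, an orange square for replicate 2 and a blue bar for the range of the 2 wild-type arrays. Replicate 1 lies right of replicate 2 for every gene but Clec4a3, and for Itga2b, Ptprc and Spi1 replicate 2 lies inside or left of the wild-type range.

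The change over differentiation in wild type did not choose the members, but it shares the wild-type day 6 arrays with the contrast that did, and the spread in its test came from all 8 arrays. In wild-type cells, day 6 was tested against day 0 with limma on all 25893 genes above background in at least 1 group, with p-values adjusted by Benjamini-Hochberg. Of the 10 members 9 could be tested, Spi1 being the exception. The platelet genes Pf4, Gp9 and Itga2b rose and Laptm5 fell, while 24% of all tested genes changed, 11% upwards and 12.9% downwards. Pf4 and Gp9 were below background on all day 0 arrays. They entered the test only through day 6 arrays and so leaned towards a rise, and the members' count is not read against these shares. The median log2 change of all tested genes was -0.12.

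Pf4 was at least 24.8-fold higher at day 6 than at day 0 in wild type (limma adjusted p = 0.0024), and Gp9 at least 7.66-fold higher (limma adjusted p = 0.0015). Both were in the test only through day 6 arrays. Itga2b rose by 3.29 ± 0.67 on the log2 scale (SE, 2 arrays per group), with a limma adjusted p of 0.015. That call did not survive the removal of replicate 1 of wild type at day 0 (limma adjusted p = 0.069) or of replicate 2 at day 6 (limma adjusted p = 0.095). The call for Gp9 was lost with the normexp background correction, where its log2 change was 1.22 (limma adjusted p = 0.052). The change of Pf4 was 2.77 in that setting, still past the threshold. Both changes lay below the logarithms of the bounds given above. Laptm5 fell by 4.09 ± 0.60 on the log2 scale (limma adjusted p = 0.0052).

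The white cell gene Clec4a3 and the granule proteoglycan Srgn did not pass the test in wild type. Srgn had a log2 difference of -0.29 ± 0.29 (limma adjusted p = 0.52). Clec4a3 was not well above background in wild type at either day, so it has no fold. Csf1r differed by 0.33 ± 0.28 and Gp1bb by -0.01 ± 0.21 on the log2 scale, each with an adjusted p above the threshold. Ptprc also did not pass and was not well above background on the wild-type day 6 arrays.

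In R141C cells, day 6 was tested against day 0 in the same model. This contrast shares the R141C day 6 arrays with the one that chose the members, so it is not independent of that choice. Of the 9 tested members, 5 rose and none fell, while 15.6% of all tested genes changed, 7.6% upwards and 8.03% downwards. The same 3 platelet genes as in wild type rose, and Srgn and Clec4a3 rose too. Clec4a3 entered the test only through the R141C day 6 arrays, so it had to differ there, and Srgn's call rests on those arrays too. Pf4 and Gp9 entered only through day 6 arrays and so leaned towards a rise. Nothing is read from the count.

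Pf4 was at least 507-fold higher at day 6 than at day 0 in R141C (limma adjusted p = 0.00073), and Gp9 at least 31.8-fold higher (limma adjusted p = 0.0015). Clec4a3 was at least 9.76-fold higher (limma adjusted p = 0.0013), in a test it entered only through the R141C day 6 arrays. Itga2b rose by 4.62 ± 0.67 on the log2 scale (limma adjusted p = 0.0071). Srgn rose by 3.16 ± 0.29 on the log2 scale, 8.97-fold, with a limma adjusted p of 0.0017. With normexp the log2 changes were 7.30 for Pf4, 2.78 for Gp9 and 1.93 for Clec4a3, below the logarithms of these bounds but still past the threshold. For Itga2b and Srgn, which were above background at day 0, the log2 changes without R141C day 6 replicate 1 were 3.65 and 2.88. Without replicate 2 they were 5.59 and 3.45. In each of these fits the R141C day 6 array left in was also among those that chose the members, so they are no check of the calls. Laptm5 had a log2 difference of -0.66 ± 0.60 (adjusted p = 0.51), and it was -1.51 with R141C day 6 replicate 2 alone and 0.20 with replicate 1 alone. Csf1r, Gp1bb and Ptprc differed by 0.55, 0.28 and 0.24 on the log2 scale and did not pass the test. Whether the change over differentiation differed between the genotypes was not tested for the members, because that difference contains the contrast that chose them.

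**Figure D3:**
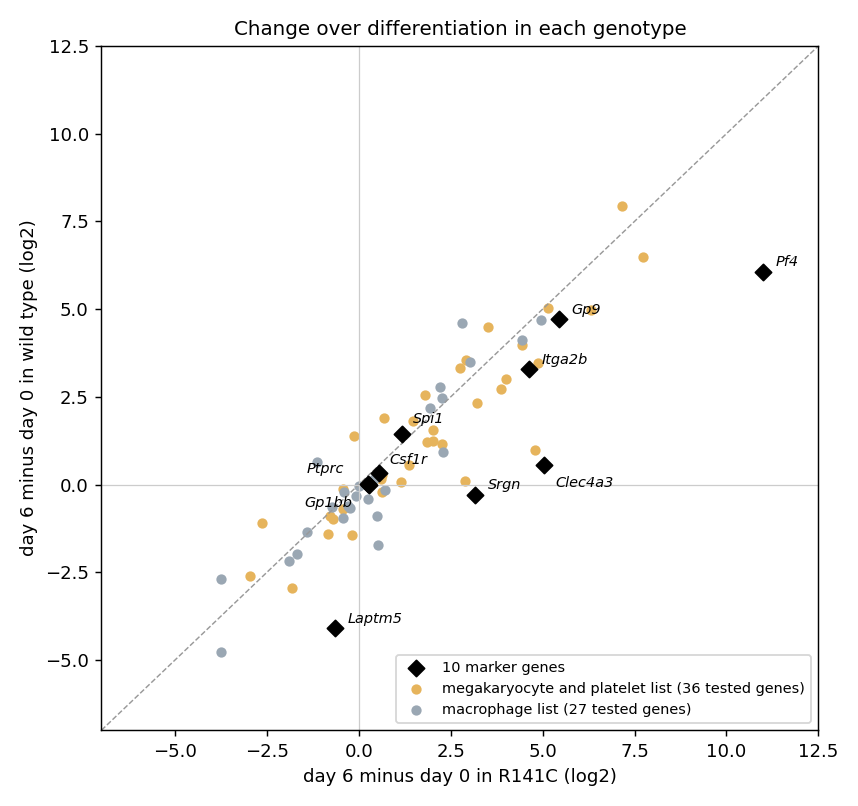
Fitted log2 change from day 0 to day 6 in R141C (horizontal axis) and in wild type (vertical axis) for the 10 marker genes (black diamonds) and the tested genes of the megakaryocyte and platelet list (orange) and the macrophage list (grey), with a dashed line of equal change. Among the marker genes, Pf4, Clec4a3, Srgn and Laptm5 lie farthest to the right of the line, and for Pf4, Gp9 and Clec4a3, which were below background at day 0, the fitted change is not a bound.

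Before differentiation the genotypes were compared on arrays that did not choose the members. None of the 9 tested members passed the limma test for R141C against wild type at day 0 (adjusted p = 0.9995 for each), and 0% of all tested genes did. At an unadjusted p under 0.05, 1 member was higher (Gp9) and 1 lower (Laptm5), while 2.29% of all tested genes were higher and 2.21% lower. Without overlap between the groups, Gp9 and Gp1bb were higher in R141C and Laptm5 was lower, against 13.8% of measured genes higher and 12.8% lower. The Laptm5 log2 difference was -1.66 ± 0.60 at day 0, and its second probe gave -1.64. Gp9, Pf4 and Clec4a3 were below background on all of these arrays and entered the test through day 6 arrays. Their day 0 differences have no fold, and their tests cannot show a difference or its absence.

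The wider lineages were read from 4 lists of genes that hold no member: 39 megakaryocyte and platelet genes, 40 leukocyte genes, 42 macrophage genes and 33 granulocyte and mast cell genes. They were chosen with earlier results of these data known. Of these 154 genes 116 could be tested, and at day 6 none passed the limma test between R141C and wild type, while 0.0657% of all tested genes did. The smallest adjusted p was 0.14. Counted at an unadjusted p under 0.05, R141C was higher for 14 of the 116 and lower for 1. The shares over all tested genes were 5.14% higher and 3.38% lower. A gene above background in R141C at day 6 alone could enter the test, and such a gene leans towards higher there. For 8 of the 116, 4 of them megakaryocyte and platelet genes, 1 genotype was below background at day 6, so only a bound is known. Their part in the 14 was not counted. Without R141C replicate 2, Treml1 passed, but that fit had a single R141C array at day 6 and called more of all tested genes than the main fit.

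In the megakaryocyte and platelet list, 28 of 36 tested genes had a higher mean in R141C at day 6, and the median log2 difference was 0.73, or 0.55 with genes below background set at their bounds, against 58.1% with a higher mean and a median of 0.07 over all tested genes. The mean log2 level of the list was -0.78 and -1.59 on R141C replicates 1 and 2, against -2.08 and -1.63 on the wild-type replicates, so R141C replicate 2 lay close to a wild-type array. At an unadjusted p under 0.05, 6 were higher and none lower. Its tested genes with the highest signal were Zfpm1, encoding the GATA1 partner FOG1, with a log2 difference of -0.09 ± 0.40, and the tetraspanin gene Cd9, with 0.21 ± 0.25. Treml1 and Gp5 are named after their values were seen. Treml1, a receptor stored in platelet granules, had log2 levels of 0.00 and -1.20 in R141C and -4.38 and -3.76 in wild type at day 6, a difference of 3.47 ± 0.49 (limma adjusted p = 0.14). Gp5, which joins Gp9 and Gp1bb in the von Willebrand factor receptor, was at least 4.87-fold higher in R141C, at a limma adjusted p of 0.18. Neither passed the test.

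The white cell lists had medians closer to 0 at day 6. Of the leukocyte genes 25 of 34 tested had a higher mean in R141C, with a median log2 difference of 0.34, and 7 were higher and none lower at an unadjusted p under 0.05. Their mean log2 level was -2.76 and -3.12 on R141C replicates 1 and 2, against -3.48 and -3.07 on the wild-type replicates, which overlapped. The brightest of them was Cyba, a subunit of the phagocyte oxidase, with 0.39 ± 0.35. The macrophage list had 16 of 27 tested genes with a higher mean, close to the share over all tested genes, a median of 0.19 and no gene past an unadjusted p of 0.05 in either direction. Its brightest genes were Csf2ra, a subunit of the receptor for granulocyte-macrophage colony-stimulating factor, with 0.36 ± 0.20, and the integrin gene Itgam, with -0.02 ± 0.24. The granulocyte and mast cell list had 15 of 19 with a higher mean, a median of 0.16 and 1 gene past an unadjusted p of 0.05 in each direction. Its brightest genes were Csf3r, with 0.15 ± 0.30, and Kit, with 0.26 ± 0.47.

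Detection at day 6 differed between the lists. Of 39 measured leukocyte genes, 29 were well above background on all 4 day 6 arrays and 5 on none. Of the 42 macrophage genes, 19 were well above background on all 4 and 18 on none of them, among them the complement genes C1qa and C1qc, the lysozyme gene Lyz2, the costimulatory receptor gene Cd86, the Fc receptor gene Fcgr1 and the protease gene Ctss. Of the 31 measured granulocyte and mast cell genes, 10 were undetected in the same sense, among them S100a8, Ngp and the mast cell protease genes Cma1 and Cpa3. In the megakaryocyte and platelet list 2 of 39 were undetected, Gp6 and P2ry12. These genes were named after their values were seen. On the 2 R141C day 6 arrays 37 and 36 genes of that list were well above background, against 33 and 31 on the wild-type arrays. The macrophage list had 23 and 24 on the R141C arrays, against 21 on each wild-type array. Over all probes, 61.0% and 62.6% were well above background on the R141C arrays, against 60.3% and 55.8% on the wild-type arrays, and the part of this in the list counts was not tested.

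Around Clec4a3, the other C-type lectin genes of the cluster on chromosome 6 did not share its pattern of detection. Of 8 measured, 6 were well above background on no array. Clec4a1 and Clec4n were above background on all 8 arrays, with log2 differences between R141C and wild type at day 6 of 0.54 ± 0.50 and 0.26 ± 0.22, and neither passed the limma test (adjusted p = 0.79 and 0.77). Among 22 tested core proteins of other proteoglycans, the family to which Srgn belongs, 11 had a higher mean in R141C and the median log2 difference was -0.08. None of them passed the limma test, and at an unadjusted p under 0.05 1 was higher and 3 were lower. The glypican genes Gpc1 and Gpc3, the brightest of them, had 0.24 ± 0.23 and 0.74 ± 0.27.

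Over differentiation, the megakaryocyte and platelet list moved in both genotypes. In R141C 18 of its 36 tested genes rose and 1 fell, against 7.6% and 8.03% of all tested genes. In wild type 17 rose and 4 fell, against 11% and 12.9% of all tested genes. Fli1, an ETS factor of megakaryocytes, rose by 7.16 on the log2 scale in R141C and by 7.93 in wild type. Plek, the platelet kinase substrate pleckstrin, rose by 7.72 in R141C and by 6.50 in wild type. Nfe2, the factor needed for platelet release, rose by 5.14 in R141C and by 5.02 in wild type. Gp1ba, the subunit that binds von Willebrand factor, was at least 20.2-fold higher at day 6 in R141C and at least 10.1-fold higher in wild type. A gene below background at day 0, as Gp1ba was, entered the test only through day 6 arrays and leans towards a rise. Only a bound is known for 6 of the 36 genes in R141C and for 2 in wild type, and their part in the counts was not tested. The limma adjusted p of Fli1, Plek, Nfe2 and Gp1ba lay between 0.0014 and 0.010. These 4 genes all rose, and the lowest log2 changes in the list were -2.96 in R141C and -2.93 in wild type.

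The white cell lists split over differentiation, and their counts stand against the same shares of all tested genes. Among 34 leukocyte genes, 10 rose and 7 fell in R141C, and 8 rose and 10 fell in wild type. The oxidase subunit gene Ncf4 rose by 3.92 in R141C and by 3.84 in wild type on the log2 scale. Among 27 macrophage genes, 6 rose and 4 fell in R141C, and 6 rose and 5 fell in wild type. Csf2rb, the shared receptor subunit for several myeloid cytokines, rose by 4.96 in R141C and by 4.70 in wild type. Tyrobp, a signalling adaptor of myeloid cells, was at least 14.4-fold higher at day 6 in R141C and at least 9.34-fold higher in wild type. It was below background at day 0, so it too entered the test only through day 6 arrays. Among 19 granulocyte and mast cell genes, 2 rose and 2 fell in R141C, and 3 rose and 3 fell in wild type. Mpo, the granulocyte peroxidase gene, rose by 3.53 in R141C and by 3.02 in wild type. The genes named here all rose. The lowest log2 changes among leukocyte genes were -5.19 in R141C and -5.60 in wild type. They were -3.76 and -4.77 among macrophage genes, and -2.66 and -3.32 among granulocyte and mast cell genes.

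Related lineages did not all lean the same way between genotypes at day 6. Among 17 tested erythroid genes 3 had a higher mean in R141C, the median log2 difference was -0.76, and 3 were lower and none higher at an unadjusted p under 0.05. The mean log2 level of the list was 0.79 and -0.05 on R141C replicates 1 and 2. It was 0.58 and 1.60 on the wild-type replicates, so R141C replicate 1 lay between them. The embryonic globin gene Hbb-bh1 had a log2 difference of -0.72 ± 0.49 and the transferrin receptor gene Tfrc of -0.33 ± 0.19. Among 18 blood transcription factors 16 had a higher mean, with a median of 0.68, though the mean log2 level was 1.89 and 0.31 on R141C replicates 1 and 2, against 0.30 and 0.95 on the wild-type replicates, and 1 gene was lower and none higher at an unadjusted p under 0.05. Among 24 endothelial genes 11 had a higher mean, with a median of -0.01 and 1 gene in each direction at that p. Visceral endoderm genes had 8 of 13 with a higher mean, a median of 0.36 and 3 higher at that p, and parietal endoderm genes 5 of 14, a median of -0.24 and none past that p. No gene of these 5 lists passed the limma test at day 6, where the smallest adjusted p was 0.057.

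**Figure D4:**
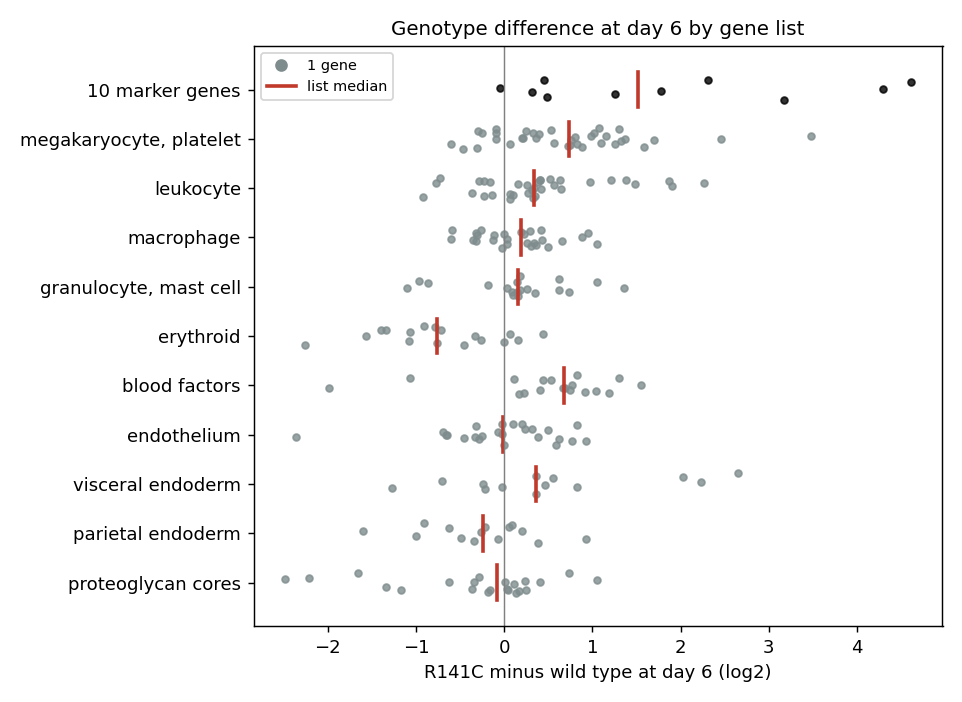
Log2 difference between R141C and wild type at day 6 for the 10 marker genes (black) and for the tested genes of 10 lists (grey, 1 point per gene), with red lines for list medians. The marker genes have a median of 1.51, the megakaryocyte and platelet list 0.73 and the macrophage list 0.19, while the erythroid list lies mostly left of 0 with a median of -0.76. Points are differences of group means, and the erythroid mean level on R141C replicate 1 lay between those of the wild-type arrays.

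Over the 8 arrays the members did not follow 1 profile. Pf4, Gp9 and Itga2b had Pearson correlations of 0.95 to 0.97 with each other, and Srgn and Clec4a3 had 0.94. Srgn had 0.79 with Pf4, 0.73 with Gp9 and 0.71 with Itga2b, and 0.01 with Laptm5, which had -0.62 with Gp9. These correlations are descriptions over arrays of 4 groups, so they share the group means. Among 17693 other tested genes with a current symbol, the 5 most like Srgn by Pearson correlation over the 8 arrays were Pwwp2b (0.98), Gm10229 (0.96), Serpina3b (0.96), Mib1 (0.96) and Ces2h (0.95). The Spearman correlations of these 5 were between 0.43 and 0.76.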

How the data were processed

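RNA of 8 mouse embryonic stem cell cultures was labelled with Cy3 and each was read on its own one-colour Agilent array, per the labels. Per the file headers, signals were extracted with Agilent Feature Extraction 11.5.1.1 on mm9 probe positions, while the submitters' processing notes give 10.5.1.1. The deposited processed signal is an intensity with background already subtracted. The mean and background signals are intensity values deposited uncorrected, the flags are deposited as 0 or 1 per spot (other), and the deposited series matrix holds log2 values that resemble quantile-normalized ones. Of 62976 spots per array 59305 were not controls, 131 to 251 outlier spots per array were left out, and no spot was saturated.

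Spots of a probe were averaged, log2 of the processed signal was shifted to the 75th percentile of each array, and each gene was read from its brightest probe over the 8 arrays. A gene was tested where 1 or more groups had it well above background on both arrays (25893 of 34735, 74.5%). Tests used limma 3.58.1 with statmod 1.5.0 and data.table, version 1.17.8, under R 4.3.3. 1 model of 4 group means was fitted to 8 arrays, with 4 residual and 2.70 prior degrees of freedom, two-sided tests and Benjamini-Hochberg adjustment over all tested genes, called at 0.05. The number of arrays limits the precision. Probe names were updated from RefSeq tables (2051 of 55681 probes renamed), and Python 3.11.15 with pandas 2.3.3 and matplotlib 3.10.9 drew the figures. The fit was tested on simulated data.

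The members and gene lists were chosen with earlier results of these data known. All 10 members are named. Each list could add up to 4 called genes, taken by size of change, or its 2 brightest genes if it had no call. The genes named in this way over differentiation, from the white cell and the megakaryocyte and platelet lists, all rose. Some falls in the white cell lists were larger. The 5 genes most like Srgn were named. Results of 2 genes open to naming are not reported here. Results were recomputed with array medians or quantiles equalized, normexp (offset 50), the series matrix, dim probes kept or required bright on all 8 arrays, probes averaged per gene, eBayes trend and robust options, fits to the compared arrays alone, a replicate block, and each array removed. Same-numbered replicates are not said to be paired.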

Additional observations from a re-analysis of the deposited data

Results flagged for a closer look

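For 5 genes, every array of 1 contrast moved one way in one genotype or day and the opposite way in the other. Srgn had a log2 change from day 0 to day 6 of 3.16 in R141C and of -0.29 in wild type, and the difference between these was not tested, since it contains the contrast that chose the gene. Laptm5 had a log2 difference between R141C and wild type of 1.77 at day 6 and of -1.66 at day 0, and this reversal was not tested for the same reason.

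The other 3 are not among the 10 marker genes. The visceral endoderm gene Amn had a log2 change over differentiation of 1.36 in R141C and of -1.69 in wild type, and the limma test of the difference gave an adjusted p of 0.21. Vav1, a signalling protein of blood cells, had 1.49 in R141C and -0.78 in wild type (adjusted p of the difference 0.87, limma). The leukocyte myosin gene Myo1f had a log2 difference between R141C and wild type of 0.27 at day 6 and of -1.47 at day 0 (adjusted p of the difference 0.73, limma). Amn and Vav1 were named after their values were seen.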

How the results depend on the processing

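The count of members that changed over differentiation, 4 in wild type and 5 in R141C, became 2 and 2 with a filter on all 8 arrays, which left 5 members to test. The median log2 difference of the members at day 6, 1.51, was 0.61 without R141C day 6 replicate 1 and 2.43 without R141C day 6 replicate 2, and lay between these when any other array was left out. Leaving out each array gave 3 to 4 members in wild type, 5 to 5 in R141C, 0 to 0 for the genotypes at day 0 and 0 to 1 for the wider lists at day 6, where the 1 gene was Treml1 without R141C day 6 replicate 2. The megakaryocyte and platelet list alone, chosen after seeing the data, also gave 0 calls. With either R141C day 6 array left out, the other array that chose the members stayed in, so the unchanged R141C count is not read as support.

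Of the members' 471 tested values in all alternatives, 450 kept their direction and side of the threshold, 3 lost their call and 18 changed sign, none of these 18 past the threshold before or after. Of the 157 day 6 genotype differences, which have no test, 150 moved by less than a common spread and 7 by more. That spread was the median over the members of the SD between the R141C day 6 replicates, and not each gene's own SD. The 7 were Clec4a3 with normexp, and Pf4, Itga2b and Laptm5 with either R141C day 6 replicate left out. Among the 157, 2 changed sign, both of Ptprc. Gp1bb over differentiation in wild type was 0.15 with quantile normalization, 0.11 with the median shift, 0.070 with normexp and 0.15 in the series matrix, and ran from -0.14 to 0.12 without single replicates. Its day 0 genotype difference was -0.092 as the mean of its probes. Without single replicates, day 0 genotype differences ran from -0.80 to 0.43 for Clec4a3, -1.07 to 0.44 for Pf4, -0.51 to 0.35 for Itga2b, -0.16 to 0.33 for Ptprc and -0.0029 to 0.46 for Csf1r. Differences over differentiation ran from -0.060 to 1.17 for Clec4a3 and -0.38 to 0.41 for Ptprc in wild type, and from -0.17 to 0.64 for Ptprc and -1.51 to 0.20 for Laptm5 in R141C. The calls lost were Gp9 in wild type with normexp and Itga2b in wild type without wild-type day 0 replicate 1 or day 6 replicate 2, and the cause was not tested. With replicate number as a block, the counts were 4, 5, 0 and 0, so no call of these results changed. Deviations of same-numbered arrays correlated at 0.07 between genotypes at day 6, -0.14 at day 0, 0.00 between days in wild type and 0.34 in R141C. With crossed pairs at day 0, added after seeing the data, 0 members passed.

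Signal near background limits Clec4a3 in all groups but R141C at day 6, Gp9 and Pf4 at day 0, Ptprc at day 6 and Spi1 throughout, and 2 arrays per group limit every test.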
